A study of Mus musculus with 18 samples.

Results

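The clustered histone genes were analysed in mouse bone marrow-derived macrophages (BMDM) that carried or lacked Slc7a7 in myeloid cells and were exposed to acetylated or oxidized low-density lipoprotein. They were taken as the genes whose symbol begins with Hist1h, Hist2h, Hist3h or Hist4h and whose estimated counts summed to at least 10 over the 18 libraries. Of 67 rows with such a symbol, 63 were kept among 31053 listed genes. All 63 also passed the filter on low counts and were tested among 12290 genes, so no histone gene was lost to it. The 4 rows under the limit were Hist1h2aa and Hist1h2ba with a summed count of 0, Hist1h1t with 4 and Hist1h2ao with 7.474, and the gene just inside it was Hist3h2ba with 34.056.

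In each genotype 3 mice, aged 12 weeks, gave marrow that was differentiated into macrophages, seeded at 100000 cells and exposed for 24 h to vehicle (control), 50 µg/mL Ac-LDL or 100 µg/mL Ox-LDL. The 6 groups of 3 libraries therefore came from 6 mice, each of which gave a library in all 3 media, and mouse 1 of one genotype is not mouse 1 of the other. The knockout, Slc7a7-LysM-/-, loses Slc7a7 through a Cre recombinase driven from the lysozyme 2 (Lyz2) locus, which is active in myeloid cells, and its comparator, Slc7a7-LysM+/+, is called wild type here. Total RNA was sequenced, so transcripts without a poly(A) tail were captured too. The 2 lipoproteins were given at different doses and are not compared with each other.

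Histones are the proteins around which DNA is wound. Each nucleosome has a core of H2A, H2B, H3 and H4, and linker histone H1 binds where DNA enters and leaves it. The replication-dependent histones are encoded by many near-identical genes that sit in clusters, are transcribed together in S phase and supply the chromatin of newly copied DNA. Their mRNAs end in a conserved stem-loop instead of a poly(A) tail. The stem-loop is bound by SLBP, is needed for the cut that forms the 3′ end, and lets the mRNA be destroyed quickly when DNA synthesis stops. Macrophages grown from marrow with a macrophage growth factor can still divide, so cultures hold cycling cells.

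The 63 genes comprised 5 H1, 16 H2A, 17 H2B, 12 H3 and 13 H4 genes. Of these, 50 lay in the Hist1 cluster on mouse chromosome 13 (build mm10), between positions 21715763 and 23764406. A further 10 lay in the Hist2 cluster on chromosome 3, between 96219865 and 96270132, 2 in Hist3 on chromosome 11 and 1 in Hist4 on chromosome 6. Of the 49 genes whose annotated transcript ran at least 40 bases past the stop codon, 44 held a stem-loop there, 22 to 59 bases after the stop codon (median 32). There were 8 versions of the stem-loop. The commonest stood in 25 genes, an H4 version in 7 and a version with another loop in 5. They are printed here because they are what the genes share beyond the protein they encode. Capitals mark the stem-loop, lower case the 5 bases on either side, and the letters were read on the strand of the gene from GENCODE transcripts of the same build:
Hist1h1c (H1): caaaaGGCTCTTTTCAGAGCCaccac
Hist1h3b (H3): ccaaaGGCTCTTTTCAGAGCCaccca
Hist1h2ab (H2A): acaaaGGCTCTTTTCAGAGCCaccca
Hist2h2ac (H2A): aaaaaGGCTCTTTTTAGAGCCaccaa
Hist1h2bk (H2B): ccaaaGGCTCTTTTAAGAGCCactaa
Hist1h4h (H4): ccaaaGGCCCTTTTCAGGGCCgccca
Hist1h4b (H4): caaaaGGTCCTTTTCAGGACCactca

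The stem-loop was not found in the annotated transcripts of Hist1h1a, Hist1h2bc, Hist1h2bq, Hist1h2br and Hist2h2be, which says only that these letters are not in those transcripts. The transcripts of the other 14 genes stopped too early to tell.

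Promoters of the clusters also share short elements. Of the 63 genes, 62 matched RefSeq (GRCm38.p6), 57 of them with 58 promoters of 300 bases, from 250 before to 50 after the start. The CCAAT box, searched by those letters on both strands as the other motifs were, was present in 49 of these 58 (84.5%) and in 37.4% of all 32851 promoters. TATAAA stood in 33 (56.9%, against 13.6% of all) and the octamer ATTTGCAT in 12 (20.7%, against 1.7%). No motif contains another, and a match is a description and not a site in use. The 100 bases before the start of 3 genes that fell with Ox-LDL in the knockout when the mouse was kept as a block are shown 5′ to 3′ on the strand of the gene, with these motifs or their reverse complements in capitals:
Hist2h2bb, chr3:96269600-96269699, plus strand: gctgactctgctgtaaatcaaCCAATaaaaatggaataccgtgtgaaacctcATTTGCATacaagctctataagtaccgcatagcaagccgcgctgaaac
Hist2h2ac, chr3:96220881-96220980, minus strand: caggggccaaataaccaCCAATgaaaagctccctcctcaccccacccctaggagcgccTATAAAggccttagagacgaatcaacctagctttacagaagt
Hist1h2ab, chr13:23750988-23751087, plus strand: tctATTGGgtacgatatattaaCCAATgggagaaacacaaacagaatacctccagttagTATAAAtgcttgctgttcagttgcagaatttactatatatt

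The genes are so alike that reads can belong to several of them. In 38 of the 63 genes, over 50% of all 31-base words of the annotated transcripts also occurred in another gene, with a median of 56.3% over the genes. The median was 74.9% for H2A and 3.9% for H1. Every such word of Hist2h2aa2 recurred elsewhere. Counts of single H2A, H2B, H3 and H4 genes are therefore the division of shared reads that the authors' quantification made. The comparisons were repeated with related copies summed into 22 units, 7 of them groups that held 48 genes and 15 single genes. Pairs that shared at least 50% of the words of the gene with fewer words were joined in chains. Large groups thus also hold less similar genes, such as Hist1h2ac, with 13.5% of its words shared, and Hist1h2be, with 18.2%.

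Libraries held between 1043492 and 1768816 counts, with a median of 1466145. The targeted gene, Slc7a7, which encodes a transporter of cationic amino acids, was at 14.9 ± 5.41 CPM (counts scaled to library size and composition, mean ± SD, n = 3) in wild-type and 6.58 ± 3.20 in knockout control cells. With Ac-LDL the levels were 25.3 ± 2.74 and 3.27 ± 1.69, and after Ox-LDL they were 28.0 ± 1.81 and 9.91 ± 1.15. It was lower in every knockout library than in every wild-type library of the same medium, and passed the test with Ac-LDL (edgeR quasi-likelihood test, adjusted p = 0.000472) but not in control medium (adjusted p of 1) or with Ox-LDL (adjusted p = 0.276). Lyz2, whose locus carries the Cre, was also lower in the knockout with Ac-LDL (log2 fold change -1.23, adjusted p = 0.0149) and Ox-LDL (-1.24, adjusted p = 0.0263). In control medium Lyz2 was lower too, at 13234 against 24242 CPM with no overlap. There it passed with DESeq2 but not with edgeR (log2 fold change -0.87, DESeq2 adjusted p = 0.00673, edgeR adjusted p = 0.562). Macrophage markers were present throughout, with Csf1r, the receptor for the growth factor of these cells, between 1312 and 3000 CPM, but several moved with Ox-LDL as the histone genes did, as given beside those results. The 7 tested neutrophil and granulocyte precursor genes summed to between 25.5 and 252 CPM. Their sum was 78.9 to 218 in wild-type and 25.5 to 65.4 in knockout cells with Ac-LDL, and 143 to 252 and 62.9 to 114 with Ox-LDL, and its part in the histone values was not tested. None of the 8 erythroid genes, 1 of 9 lymphoid, 2 of 6 dendritic cell, 2 of 6 stem cell and 3 of 6 stromal genes had enough counts to be tested.

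Histone transcripts made up 0.322% to 0.812% of the counts of a library, or 4371 to 10122 counts. By summed CPM over the 18 libraries, H2A gave 30.3% of the histone total, H1 27.8%, H2B 16.9%, H3 12.6% and H4 12.3%. Since H1 transcripts are longer, levels between genes are compared only per kilobase of annotated exon. On that scale the summed level was 2991 CPM per kb for the H2A genes, 1321 for H2B, 1010 for H4, 910 for H3 and 890 for H1. H2A thus stood highest and the other 4 classes lay within a narrower range, but this order depends on the annotated lengths. Hist1h1d, an H1 gene annotated with 7425 bases of exon, gave 47.4 CPM per kb from a mean of 352 CPM. The H2A gene Hist1h2ai, annotated with 393 bases, gave 703 from 276 CPM.

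The single gene with the highest level per length was Hist1h2ai, an H2A gene, at 703 CPM per kb. It was followed by Hist2h2aa1 at 380 and Hist2h2aa2 at 374, which are H2A copies that share nearly all of their sequence and cannot be ranked against each other. Hist1h1b (271) and Hist1h1c (251) led the H1 class, Hist1h3b (249) the H3 class, Hist2h2bb (223) the H2B class and Hist1h4k (183) the H4 class. The annotated transcripts of Hist1h2ai, Hist2h2bb and Hist1h4k end at the stop codon, with 393, 381 and 312 bases. Of their words, 86.8%, 59.3% and 86.2% also occur in other genes. Their places in this order thus depend on the annotation and on the division of shared reads. Hist3h2ba was lowest, at 2.0 CPM per kb. The 10 genes of highest CPM held 50% of all histone counts, 28 genes had a mean of at least 50 CPM, and 57 were detected in every library.

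**Figure D1:**
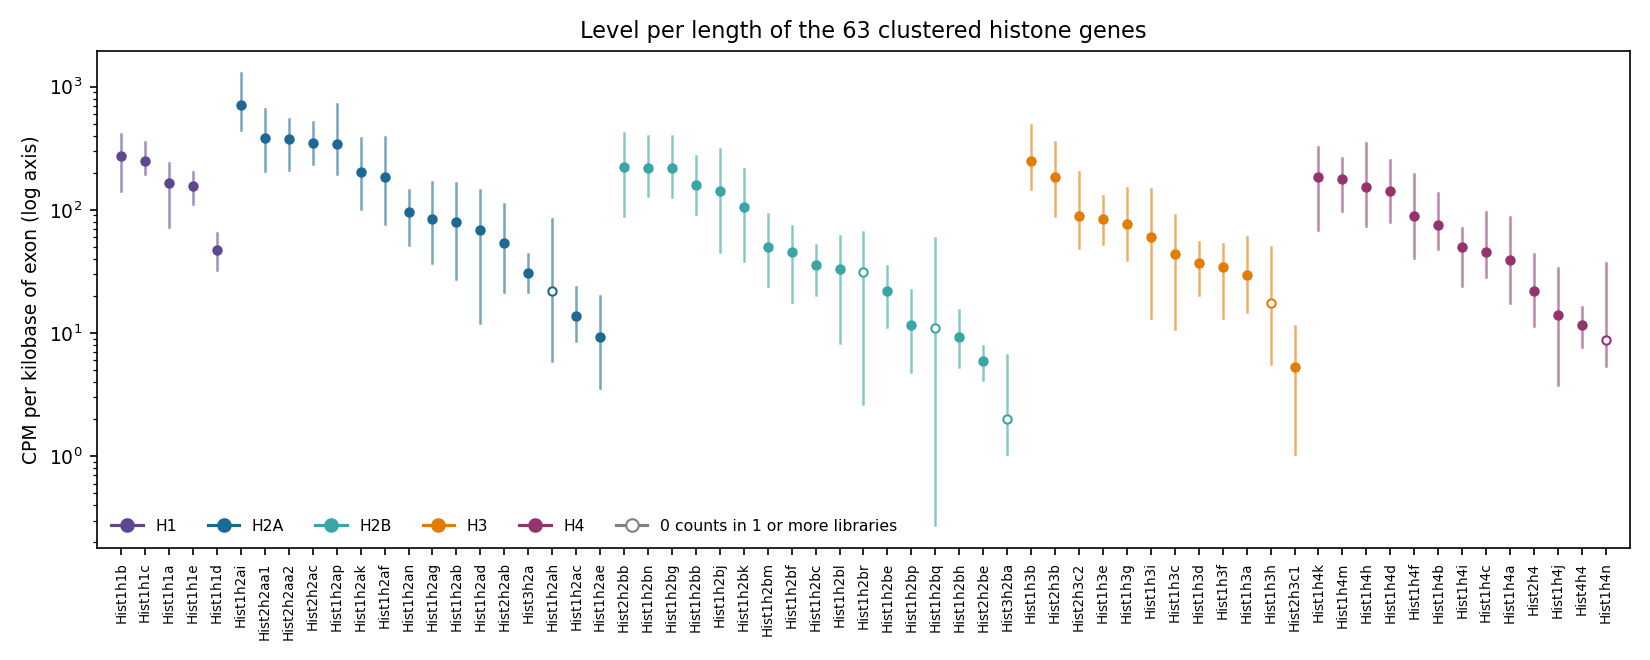
Level of each of the 63 histone genes in CPM per kb of annotated exon (log axis), grouped by class; dots are means over 18 libraries, lines the range of libraries above 0, and open dots mark genes at 0 in at least 1 library. H2A holds the highest gene, Hist1h2ai at 703, and H2B the lowest, Hist3h2ba at 2.0.

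The H1 genes encode linker histones and varied least between libraries. Their summed level ranged 1.92-fold over the 18 libraries, against 2.69-fold for H2A, 2.92-fold for H2B, 3.17-fold for H3 and 3.08-fold for H4. Hist1h1c was at 558, 415 and 336 CPM in wild-type mice 1, 2 and 3 in control medium and at 336, 366 and 410 in the knockout, and no library lay under 305 CPM. Hist1h1d, at a mean of 352 CPM, and Hist1h1e, at 299, were the next H1 genes by CPM, although Hist1h1d is annotated with 7425 bases of exon and its reads need not all come from the histone transcript, and Hist1h1e shares annotated exon on the same strand with Hist1h2be.

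Core histone genes spread more, above all in the wild-type controls. Hist1h2ai stood at 503, 304 and 187 CPM in the 3 wild-type control libraries, at 203, 290 and 305 in the knockout controls, and at 179, 192 and 234 in the knockout with Ox-LDL. Hist1h3b, which encodes H3, stood at 305, 147 and 94.0 CPM in the wild-type controls, 115, 167 and 162 in the knockout controls, and 95.1, 91.7 and 154 in the knockout with Ox-LDL. Hist1h4d, an H4 gene, gave 288, 162 and 109 CPM in the wild-type controls and 148, 171 and 165 in the knockout controls. In each case wild-type mouse 1 was highest and wild-type mouse 3 lowest of all 6 control libraries, so the wild-type controls enclosed the knockout controls. Hist1h2bg (H2B) showed the same order, with 243, 144 and 94.8 CPM against 125, 132 and 129. The noncoding RNA gene Gm26917, which took a large share of each library, went the opposite way in wild-type controls, with 6.86%, 8.14% and 11% of counts in mice 1, 2 and 3. It held 9.51%, 10.4% and 9.25% in the knockout controls, and its part in the histone spread was not tested.

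The summed histone level in control medium was 8046, 5429 and 3433 CPM in wild-type mice 1, 2 and 3 (mean 5636 ± 2314) and 4133, 5092 and 5196 CPM in knockout mice (4807 ± 586). With Ac-LDL it was 6472, 5925 and 4308 CPM in the wild type (5568 ± 1125) and 3653, 5174 and 5869 CPM in the knockout (4899 ± 1133). With Ox-LDL it was 6350, 4081 and 3882 CPM in the wild type (4771 ± 1371) and 3677, 3140 and 4516 CPM in the knockout (3777 ± 693). Groups overlapped in every medium, and in each knockout mouse, but not each wild-type mouse, the level with Ox-LDL was under that of the same mouse's control. In bulk RNA such as this, fewer cycling cells and less histone RNA per cell cannot be told apart.

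**Figure D2:**
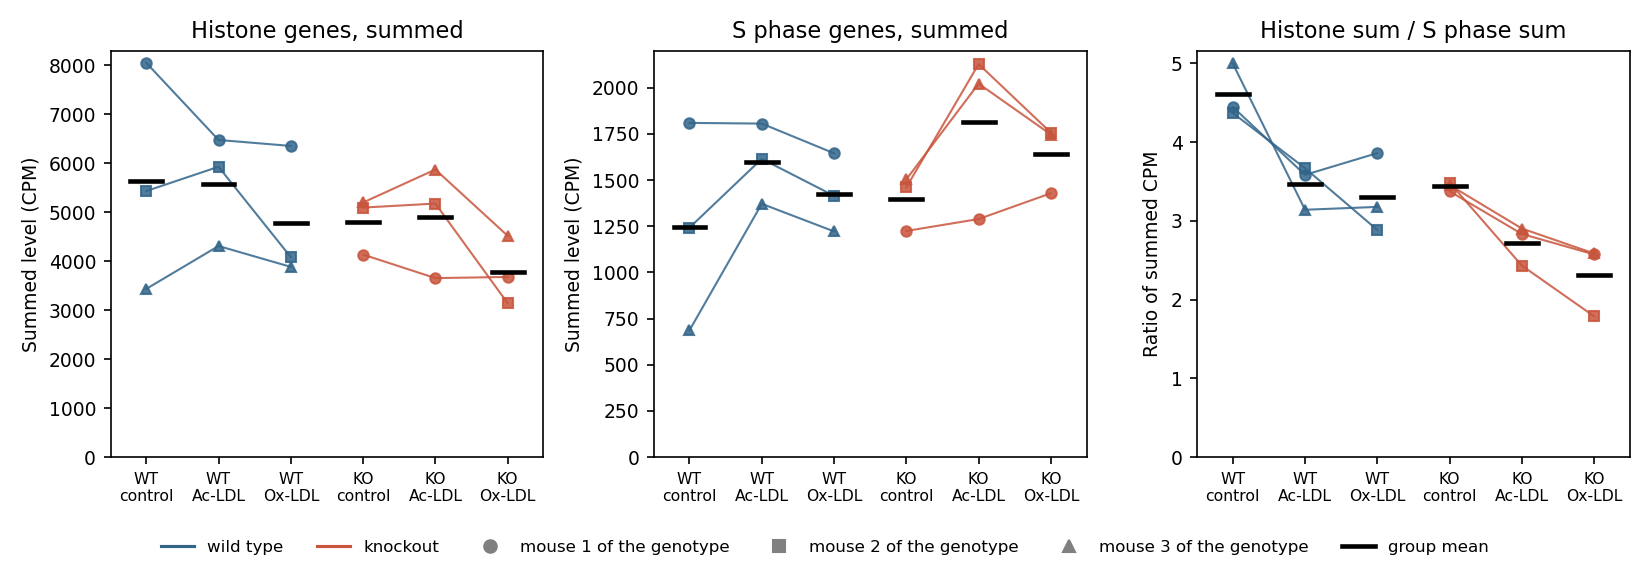
Summed level of the 63 histone genes, summed level of the 28 S phase genes and their ratio in each library, by genotype and medium; lines join the 3 libraries of a mouse and black bars are group means (n = 3). The ratio is lower than in control medium for all 6 mice with either lipoprotein.

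The response to Ac-LDL was compared with control medium within each genotype. In the wild type, the mean summed histone level differed by -1.20% from control, and by -19.6%, 9.13% and 25.5% in mice 1, 2 and 3, so the mice did not share a direction. Of the 63 genes, 32 had a higher and 31 a lower fitted value, with a median log2 fold change of 0.00. In the knockout the mean differed by 1.91%, 34 genes were higher and 29 lower, and the median was 0.02. Class medians lay between -0.09 and 0.14 in the wild type and between -0.05 and 0.15 in the knockout. H1 had the highest class median in both, with 4 of 5 genes higher in the wild type and 5 of 5 in the knockout.

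No histone gene passed the edgeR test with Ac-LDL in either genotype, where 0.472% of all tested genes passed in the wild type and 0.521% in the knockout. At an unadjusted p under 0.05, 1 histone gene stood out in the wild type (7.33% of all genes) and 2 in the knockout (7.53%), each lower than control. DESeq2 called 0 histone genes in both (0.61% and 0.618% of all genes). In each genotype, 5 histone genes were lower in all 3 mice, against 15.5% of all genes in the wild type and 18.7% in the knockout, so these shares were under the background.

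When the mouse was kept as a block, which compares the media within each animal, 1 histone gene fell with Ac-LDL in the wild type (2.16% of all genes passed) and 1 in the knockout (2.5%). The first was Hist2h2aa1, an H2A gene, at 388, 327 and 225 CPM in control medium and 205, 277 and 171 with Ac-LDL (log2 fold change -0.50, SE 0.130, adjusted p = 0.0291 with the block and 0.576 without). Its copy Hist2h2aa2 went the other way in the same mice, from 225, 178 and 165 CPM to 280, 250 and 197. Their sum was 613, 505 and 389 CPM in control medium and 485, 527 and 367 with Ac-LDL. The sum was thus lower in 2 mice and higher in 1, and with the copies summed no unit passed in either genotype, with or without the block.

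The second was Hist1h2ah, an H2A gene that shares 91.2% of its words with other genes, 88.0% with Hist1h2ad. It was at 2.41, 23.5 and 0 CPM in the knockout controls, at 0 in all knockout libraries with Ac-LDL and with Ox-LDL, and at 7.59, 34.0 and 34.0 CPM in the wild type with Ac-LDL. The 3 counts per library that a count of 0 allows correspond on average to 1.92 CPM in the knockout Ac-LDL libraries. The estimated level was then at least 13.1-fold lower than in the wild type with Ac-LDL. Such a bound covers counting noise only. Shared reads can be credited to another gene, so a 0 does not bound the level of Hist1h2ah itself. Against knockout controls the bound was 4.5-fold, but it rested on mouse 2: without that library the control mean was 1.21 CPM, under the limit, and no bound was left. The adjusted p against control was 0.00512 with the block and 0.274 without. A knockout control library was itself at 0, so control and Ac-LDL libraries overlapped, and the H2A copies summed together did not pass.

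The response to Ox-LDL was compared in the same way, with the same control libraries. In the wild type, 49 of 63 histone genes had a lower fitted value and 14 a higher one, with a median log2 fold change of -0.26, against 0.01 over all tested genes. The H4 genes were lower in 13 of 13 cases, with a median of -0.37, and the H1 genes had a median of 0.01. The mean summed level differed by -15.4%, and by -21.1%, -24.8% and 13.1% in mice 1, 2 and 3. Wild-type control mouse 1 decided this direction, since the log2 ratio of the means was -0.24 with it and 0.11 without it.

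With Ox-LDL no histone gene passed the edgeR test in wild-type cells (1.34% of all genes passed), 3 had an unadjusted p under 0.05 (10% of all genes), all lower, and DESeq2 called 0 (1.43%). There were 12 genes lower in all 3 mice, against 15.9% of all genes. With the mouse as a block, 2 genes fell, where 4.39% of all genes passed. Hist2h2aa1 went from 388, 327 and 225 CPM to 234, 201 and 121 (log2 fold change -0.77, SE 0.131, adjusted p = 0.000119 with the block and 0.114 without). Hist1h2ai, the gene of highest level per length, went from 503, 304 and 187 CPM to 369, 174 and 181 (-0.44, SE 0.129, adjusted p = 0.0416 with the block and 0.706 without). Each was lower in all 3 mice, although control and Ox-LDL libraries overlapped. Hist2h2aa2, the copy of Hist2h2aa1, went from 225, 178 and 165 CPM to 249, 172 and 201. The sum of this pair went from 613, 505 and 389 CPM to 483, 373 and 322. With the copies summed, no unit passed with the block.

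In the knockout with Ox-LDL, 57 of 63 histone genes had a lower fitted value and 6 a higher one. The median log2 fold change was -0.37, against 0.00 over all tested genes, and all 28 genes with a mean of at least 50 CPM were lower. Class medians were -0.49 for H2A (16 of 16 lower), -0.39 for H4 (10 of 13), -0.37 for H2B (16 of 17), -0.35 for H3 (10 of 12) and -0.13 for H1 (5 of 5). The mean summed level differed by -21.4%, and by -11.0%, -38.3% and -13.1% in mice 1, 2 and 3. Of the 63 genes, 32 were lower in all 3 mice, against 20.1% of all tested genes, and 14 were lower with no overlap between the groups, against 11.6%.

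Markers of the macrophages themselves were also lower in this comparison. Csf1r was at 2477, 2653 and 3000 CPM in the knockout controls and 1692, 1944 and 2082 with Ox-LDL (log2 fold change -0.51, edgeR adjusted p = 0.260 without the block and 0.000247 with it), and the mean of Adgre1, which encodes F4/80, was 1871 and 1222 CPM. Of 10 macrophage genes, 8 had a lower fitted value with a median of -0.31. Spi1, which encodes a transcription factor of myeloid cells, fell without the block (-0.50, adjusted p = 0.0274), where 2.32% of all genes passed. With the block 5 fell (Csf1r, Adgre1, Lyz2, Cd14 and Spi1) and 2 rose (Mertk and Mrc1), where 7.18% of all genes passed. In the wild type with Ox-LDL the median was -0.18, with 4 that fell and 2 that rose with the block (4.39% of all genes passed). The part of these markers in the histone values was not tested.

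**Figure D3:**
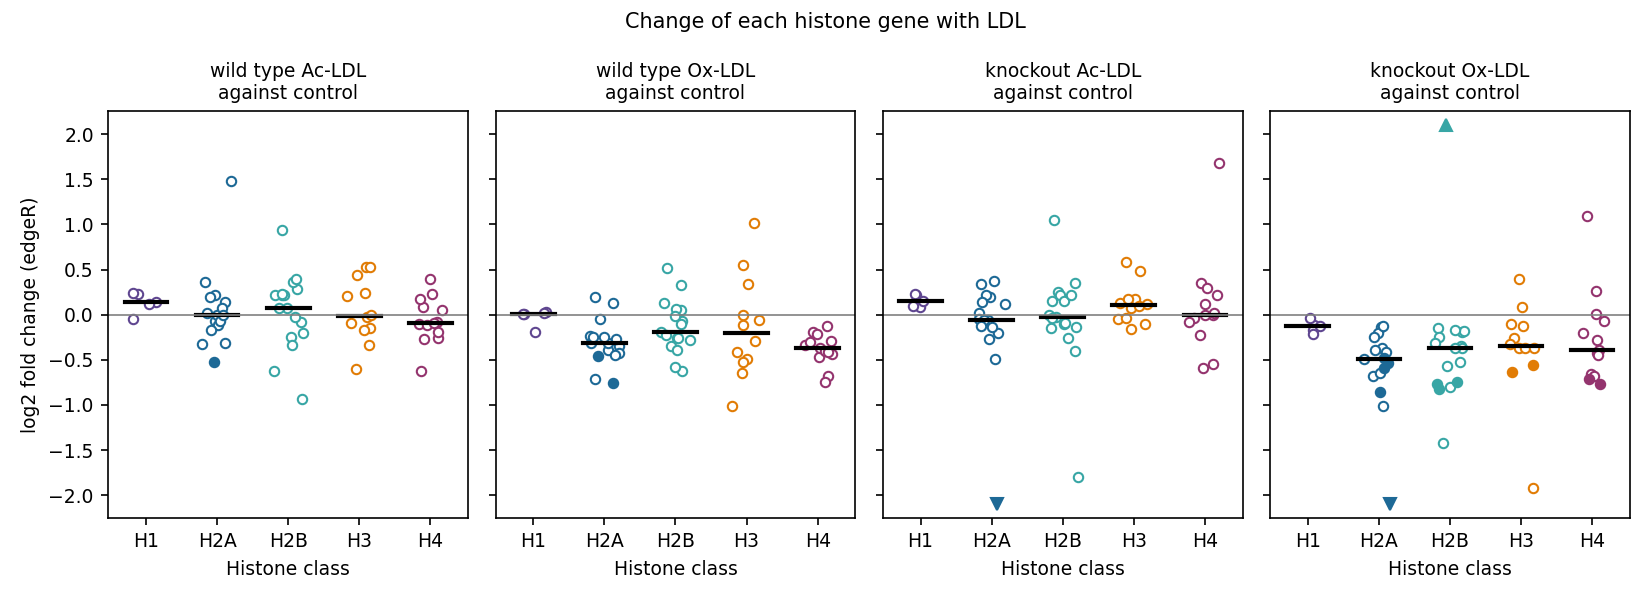
Fitted log2 fold change of each histone gene with Ac-LDL or Ox-LDL against control medium, by class, in wild type and knockout; filled points passed with the mouse as a block (adjusted p under 0.05), black bars are class medians and triangles mark values beyond the axis limit of 2.1. In the knockout with Ox-LDL the class medians run from -0.49 for H2A to -0.13 for H1.

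Hist1h2bc was the only histone gene to pass the test without the block, where 2.32% of all genes passed. This H2B gene stood at 42.8, 35.9 and 49.6 CPM in the knockout controls and at 26.9, 24.6 and 23.7 with Ox-LDL, so the groups did not overlap (log2 fold change -0.77, SE 0.191, edgeR adjusted p = 0.0284). In the wild type it was at 60.3, 44.0 and 48.8 CPM in control medium and 46.6, 33.3 and 46.3 with Ox-LDL. Its annotated transcript held no stem-loop and only 32.6% of its words recurred in other genes, so its counts are less shared than those of most H2B genes. The call was not kept by DESeq2 (adjusted p = 0.0585) or with scaling by library size alone (0.0527). It was also lost without the control library of knockout mouse 1 or 3, and without any of the 3 knockout Ox-LDL libraries (adjusted p from 0.0706 to 0.175).

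Without the block, 10 histone genes of the Ox-LDL comparison in the knockout had an unadjusted p under 0.05, all lower, against 12.3% of all genes in either direction and 7.08% lower, and DESeq2 called 0 (2.2% of all genes). With the mouse as a block, 12 histone genes fell and 0 rose. In that fit 7.18% of all genes passed, and 4.82% passed as lower, so the 12 of 63 stood above the background share. The spread in that fit was estimated over both genotypes, not over the knockout mice alone.

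Of these 12, 5 were H2A genes. Hist2h2ac, which has the stem-loop shown above, went from 163, 201 and 225 CPM to 121, 125 and 157 (log2 fold change -0.55, SE 0.124, adjusted p = 0.00303 with the block and 0.364 without), with no overlap. Hist1h2ab went from 47.6, 43.3 and 50.3 CPM to 36.2, 13 and 29.5 (-0.89, SE 0.241, adjusted p = 0.0160), again with no overlap. Both genes carry the CCAAT and TATAAA letters in the promoters printed above.

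Hist1h2ak went from 68.1, 76.8 and 85.1 CPM to 39.6, 40.4 and 70.5 (-0.62, SE 0.154, adjusted p = 0.00750). Hist2h2aa2 went from 154, 222 and 239 CPM to 112, 121 and 203 (-0.52, SE 0.120, adjusted p = 0.00363), and was lower in each mouse although the groups overlapped. The fifth was Hist1h2ah, described above, at 0 in every Ox-LDL library and in the control of mouse 3, with no bound of a fold left once control mouse 2 was set aside (adjusted p = 0.00374 with the block and 0.144 without).

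Of the H2B genes, 3 passed with the block. Hist2h2bb, the H2B gene of highest level per length, went from 63.3, 111 and 108 CPM to 33.7, 53.4 and 78.0 (log2 fold change -0.77, SE 0.171, adjusted p = 0.00254 with the block and 0.304 without). It was lower in each mouse, although mouse 3 with Ox-LDL stayed above mouse 1 in control medium. Of its words, 59.3% also occur in genes outside the 63, and it overlaps Gm42743 on the same strand, so summing histone copies does not resolve its counts. The share in genes outside the 63 was 54.9% for Hist1h2ab, 59% for Hist1h2ak and 79.7% for Hist1h2ah, described above. Hist1h2bk went from 41.6, 71.8 and 61.9 CPM to 22.7, 34.9 and 39.3 (-0.87, SE 0.203, adjusted p = 0.00432), with no overlap. Hist1h2bc was the third (-0.78, SE 0.180, adjusted p = 0.00388).

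The 2 H3 genes that passed, Hist2h3b and Hist2h3c2, lie in the Hist2 cluster. Hist2h3b went from 71.1, 89.8 and 103 CPM to 57.3, 52.7 and 68.2 (-0.56, SE 0.178, adjusted p = 0.0466), with no overlap. Hist2h3c2 went from 73.0, 109 and 96.1 CPM to 50.5, 51.3 and 75.2 (-0.65, SE 0.162, adjusted p = 0.00731). Of the H4 genes, Hist1h4h went from 63.9, 87.9 and 65.1 CPM to 34.5, 50.6 and 46.2 (-0.73, SE 0.184, adjusted p = 0.00826), with no overlap. Hist1h4k went from 33.8, 68.7 and 78.6 CPM to 44.6, 21.2 and 40.5 (-0.78, SE 0.223, adjusted p = 0.0238) and was higher with Ox-LDL in mouse 1.

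**Figure D4:**
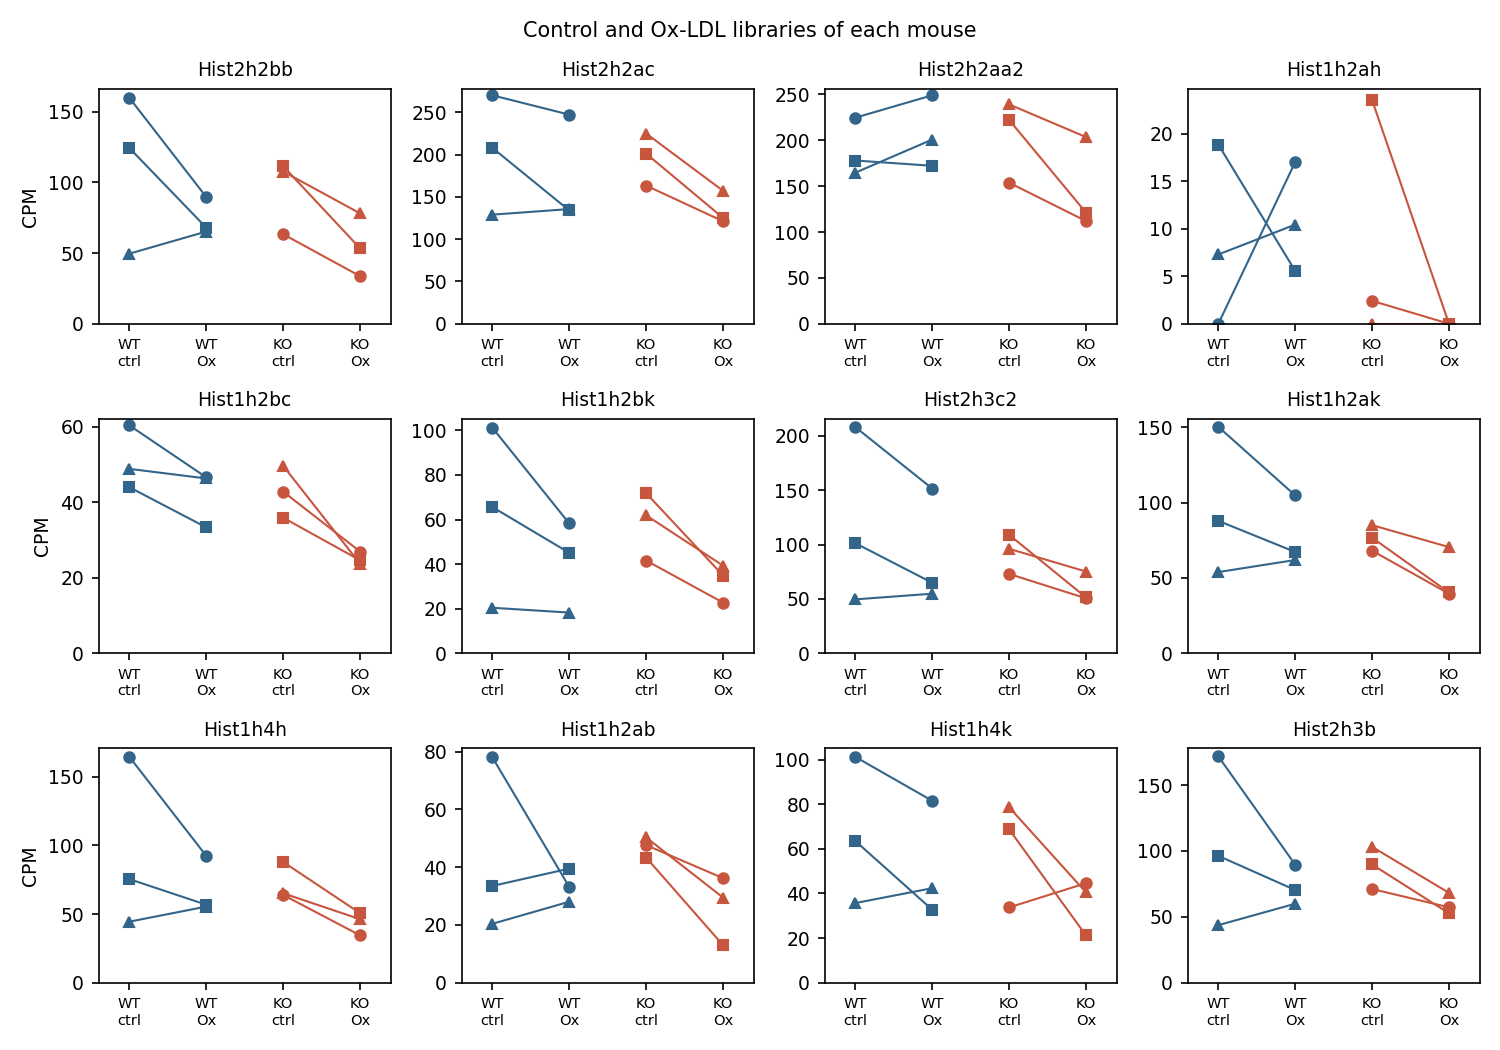
CPM of the 12 histone genes that passed in the knockout with Ox-LDL when the mouse was a block, in both genotypes, without lipoprotein and after Ox-LDL; symbols mark the mouse and lines join its libraries. Of the 12 genes, 10 are lower with Ox-LDL in all 3 knockout mice, and Hist1h4k and Hist1h2ah in 2.

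With related copies summed, 7 of 22 units fell in the knockout with Ox-LDL when the mouse was a block (7.23% of all genes passed). All 22 had a lower fitted value. They were the group of 14 H2B genes of Hist1 (log2 fold change -0.43, adjusted p = 0.0328), the group of 11 H2A genes of Hist1 (-0.45, adjusted p = 0.0229), the group of 7 H4 genes (-0.40, adjusted p = 0.0472), Hist2h2aa1 with Hist2h2aa2 (-0.42, adjusted p = 0.0110), Hist2h2ac (-0.54, adjusted p = 0.00362), the 3 H3 genes of Hist2 (-0.55, adjusted p = 0.0133) and Hist2h2bb (-0.75, adjusted p = 0.00259). None of the 5 H1 genes, each a unit alone, passed. Neither did the group of 9 H3 genes of Hist1 (-0.27, adjusted p = 0.288). Without the block edgeR called 0 units in all 9 comparisons. At an unadjusted p under 0.05 there were 4 units for Ox-LDL in the knockout, all lower, and 0 or 1 in each of the others. In the fit without summed copies, 12.3% of all genes were under that p for Ox-LDL in the knockout, and 7.08% as lower. The share was 2.66% to 10% in the other comparisons.

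The division of reads between copies is shown by Hist1h2bq and Hist1h2br, H2B genes chosen after their values were seen, which share 98.3% of the words of Hist1h2bq. Hist1h2bq was at 105, 0 and 0 CPM in the wild-type controls, where Hist1h2br was at 15.8, 132 and 75.1. In the knockout with Ox-LDL the values were 48.8, 32.8 and 0 CPM for Hist1h2bq and 0, 6.16 and 70.5 for Hist1h2br. A library high in one was low in the other. The summed pair was at 121, 132 and 75.1 CPM in the wild-type controls and 48.8, 39 and 70.5 in the knockout with Ox-LDL, a spread of 3.79-fold over all 18 libraries.

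**Figure D5:**
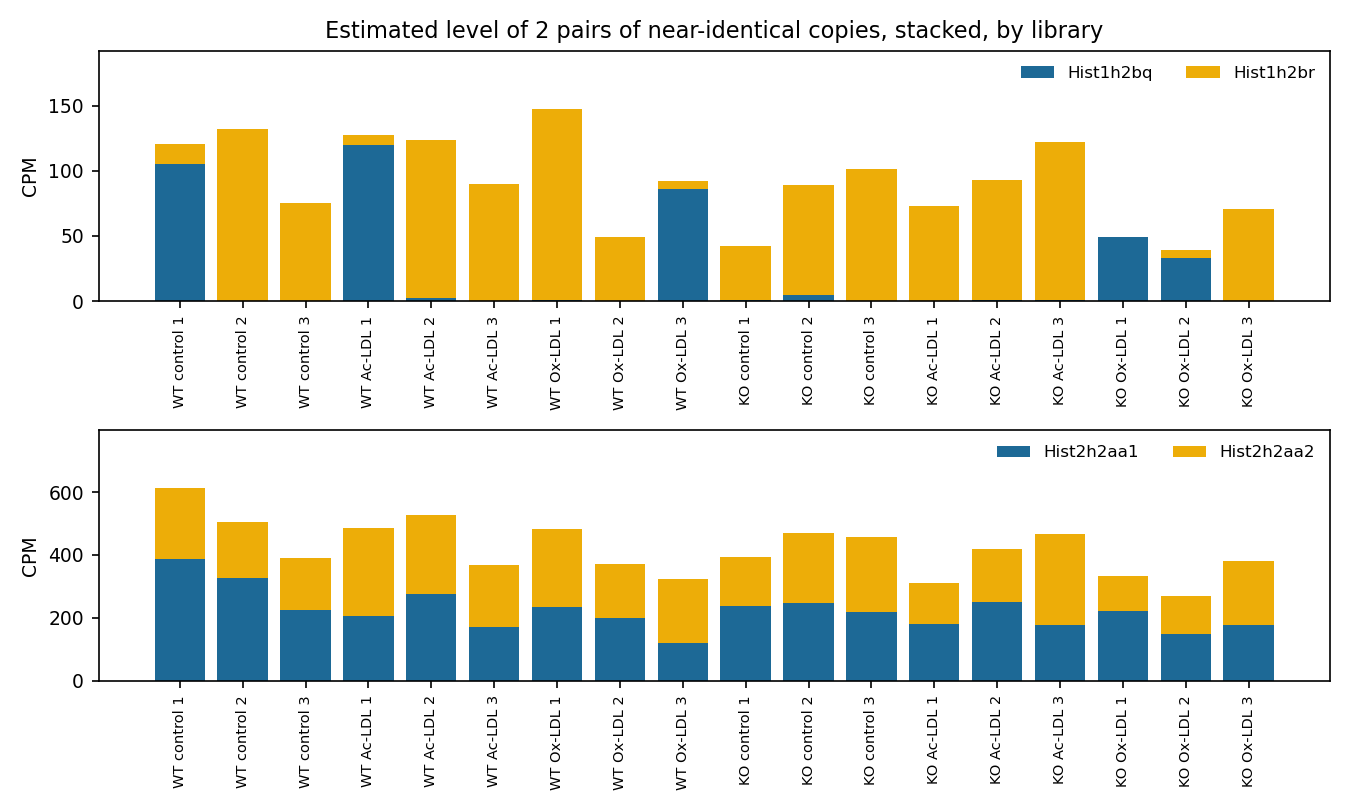
CPM of Hist1h2bq and Hist1h2br, and of Hist2h2aa1 and Hist2h2aa2, stacked by library. The share of Hist1h2bq in its pair runs from none to all, while the summed pair spans 39 to 148 CPM.

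The genotypes were compared in each medium. The mean summed histone level of the knockout differed from the wild type by -14.7% without lipoprotein, -12.0% after Ac-LDL and -20.8% after Ox-LDL. Fitted values were lower in the knockout for 51, 52 and 59 of the 63 genes, with median log2 fold changes of -0.21, -0.14 and -0.32. These directions rested on wild-type mouse 1 in control medium, where the log2 ratio of the summed level was -0.23 with its library and 0.12 without. With Ox-LDL it went from -0.34 to -0.08 without the wild-type mouse 1 library, and with Ac-LDL from -0.18 to -0.01 without the knockout mouse 1 library.

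No histone gene passed the edgeR test between genotypes in any medium. Of all genes, 0.00814% passed in control medium, 0.0163% after Ac-LDL and 0.00814% after Ox-LDL. At an unadjusted p under 0.05 there were 1, 3 and 4 histone genes, all lower, against 4%, 4.89% and 4.78% of all genes, and DESeq2 called 0 in each (0.0244%, 0.0488% and 0.00814% of all genes). The smallest p values belonged to Hist1h4n (H4) in control medium, at 15.8, 0 and 8.02 CPM in the wild type and 2.41, 0 and 0 in the knockout (edgeR adjusted p of 1), to Hist1h2ah after Ac-LDL (edgeR adjusted p = 0.234) and to Hist1h2bc after Ox-LDL (log2 fold change -0.74, SE 0.194, edgeR adjusted p = 0.933). With Ox-LDL, 5 histone genes were lower in the knockout with no overlap between the groups, against 4.8% of all genes.

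Whether the response differed between genotypes was tested as an interaction. With Ac-LDL 0 of all genes passed (0%) and with Ox-LDL 0 (0%), and 1 histone gene, Hist1h2ah, had an unadjusted p under 0.05 in each, against 2.66% and 2.75% of all genes. DESeq2 called 0 histone genes in both (0.00814% and 0% of all genes). With the mouse as a block, Hist1h2ah passed for Ac-LDL (adjusted p = 0.0291, 0.0407% of all genes) and no histone gene for Ox-LDL (0%). A larger histone response to Ox-LDL in the knockout than in the wild type was therefore not shown by this test, although the median of the genotype difference was -0.17 over the 63 genes.

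The levels of S phase genes were set beside the histone genes, since both belong to cells copying their DNA. The summed level of 28 S phase genes was 1809, 1242 and 687 CPM in the wild-type controls and 1225, 1461 and 1504 in the knockout controls. With Ox-LDL it was 1645, 1415 and 1222 CPM in the wild type and 1429, 1756 and 1746 in the knockout, which was higher than control in 5 of 6 mice. In the knockout with Ox-LDL, 25 of 28 S phase genes had a higher fitted value with a median log2 fold change of 0.24, while 57 of 63 histone genes had a lower one.

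Without the block edgeR called 0 S phase genes in the 4 lipoprotein comparisons. At an unadjusted p under 0.05, 3 and 2 were higher in the wild type after Ac-LDL and Ox-LDL (7.33% and 10% of all genes). In the knockout 8 and 1 were higher (7.53% and 12.3% of all genes). DESeq2 called Pola1 in the knockout after Ac-LDL (adjusted p = 0.0396). With the block, 1 and 2 of the 28 rose in the wild type after Ac-LDL and Ox-LDL (2.16% and 4.39% of all genes passed). In the knockout 3 rose after each (2.5% and 7.18% of all genes passed). Pola1, a subunit of DNA polymerase alpha, rose in all 4 comparisons, and Pcna, the sliding clamp, with Ox-LDL in both genotypes. In the knockout with Ox-LDL, Pola1 went from 44.3 to 77.1 CPM on average (log2 fold change 0.79, adjusted p = 0.00161), Pcna from 222 to 292 CPM (0.39, adjusted p = 0.0162) and Mcm2, a subunit of the replicative helicase, from 41.9 to 62.9 CPM (0.59, adjusted p = 0.0328). Of 22 G2/M genes, 0 passed with the block with Ox-LDL in either genotype, with medians of -0.06 in the wild type and -0.15 in the knockout, and 4 rose with Ac-LDL in each genotype, where 2.16% (wild type) and 2.5% (knockout) of all genes passed. Without the block edgeR called 0 of the 22 with Ac-LDL in either genotype, and DESeq2 called 0. At an unadjusted p under 0.05 there were 7 in each, all higher, against 7.33% (wild type) and 7.53% (knockout) of all genes. With the block, Mki67, a marker of cycling cells, and the kinetochore motor gene Cenpe rose in both, Kif11 and Pbk in the wild type, and Cenpf and Kif23 in the knockout. Histone, S phase and G2/M transcripts thus had medians of -0.37, 0.24 and -0.15 in the knockout with Ox-LDL and 0.02, 0.40 and 0.38 with Ac-LDL.

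The ratio of the summed histone to the summed S phase level, a measure added after the data were seen and given without a test, was 4.45, 4.37 and 5.0 in the wild-type controls. It was 3.58, 3.67 and 3.14 after Ac-LDL and 3.86, 2.88 and 3.18 with Ox-LDL. In the knockout it was 3.38, 3.49 and 3.46 in control medium, 2.83, 2.43 and 2.90 after Ac-LDL, and 2.57, 1.79 and 2.59 after Ox-LDL. The ratio was lower than the same mouse's control in all 12 lipoprotein libraries, and every knockout library lay under every wild-type library of the same medium. Against G2/M genes that separation held in control medium, with 2.85 to 3.52 in the knockout and 4.07 to 4.17 in the wild type. It did not hold with Ac-LDL, at 2.13 to 2.77 in the knockout and 2.59 to 3.35 in the wild type. Nor did it hold with Ox-LDL, at 2.14 to 2.92 in the knockout and 2.78 to 4.52 in the wild type. The mean ratio to S phase genes differed from control by -24.8% and -28.2% in the wild type with Ac-LDL and Ox-LDL. In the knockout it differed by -20.8% and -32.7%. Set against G2/M genes, the ratio was lower in 11 of the 12 libraries and 8.49% higher in wild-type mouse 1 with Ox-LDL.

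The H1 share of the summed histone level, also added after the data were seen and without a test, was higher than the same mouse's control in all 12 lipoprotein libraries. It was 23.3%, 26.7% and 28.5% in the wild-type controls, 26.6%, 27.7% and 28.8% after Ac-LDL and 27.3%, 31.6% and 29.4% with Ox-LDL. In the knockout it was 27.9%, 25.8% and 26.3% in control medium, 30.8%, 27.8% and 28.0% after Ac-LDL, and 32.2%, 31.3% and 29.2% with Ox-LDL. The groups overlapped between mice except in the knockout with Ox-LDL, which lay above its controls. Leaving out Hist1h1d, whose annotated transcript is long, left the share higher in the same 12 libraries.

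Other genes that handle histones were read from lists. Of 10 tested genes for replacement histones, which are made also outside S phase, mostly from polyadenylated mRNA, edgeR without the block and DESeq2 called 0 in any lipoprotein comparison. At an unadjusted p under 0.05, 1 was lower in the wild type and 2 in the knockout with Ox-LDL (10% and 12.3% of all genes). Those 2 fell with the block, where 7.18% of all genes passed. These were H3f3a, which encodes H3.3, from 518 to 402 CPM (log2 fold change -0.37, adjusted p = 0.0114), and H1fx, a linker histone gene, from 4.92 to 0.737 CPM (adjusted p = 0.0438), a level under 3 counts per library. Of 15 genes of histone mRNA processing, edgeR without the block and DESeq2 called 0. At most 1 per lipoprotein comparison had an unadjusted p under 0.05. With the block 1 passed, Casp8ap2, which rose with Ac-LDL in the wild type (0.58, adjusted p = 0.0301), where 2.16% of all genes passed. Slbp, which encodes the protein that binds the stem-loops shown above, was at 48.5 CPM in knockout controls and 53.2 with Ox-LDL (log2 fold change 0.14, adjusted p = 0.842). Of 15 genes for histone chaperones and acetylation of new histones, edgeR without the block and DESeq2 called 0 in the 4 lipoprotein comparisons. With the block 1 passed, in the knockout with Ox-LDL, where 7.18% of all genes passed. It was Daxx, a chaperone of H3.3, which fell (-0.69, adjusted p = 0.0122). Of 9 genes of cell cycle arrest, 4 had a higher fitted value in the wild type with either lipoprotein. In the knockout 6 were higher with Ac-LDL and 5 with Ox-LDL. Only Btg1, which restrains proliferation, passed with the block, and it fell in all 4 lipoprotein comparisons. Its log2 fold changes were -0.39 and -0.46 in the wild type and -0.35 and -0.59 in the knockout for Ac-LDL and Ox-LDL (adjusted p from 1.19e-05 to 0.0175). Of all genes, 2.16% and 4.39% passed there in the wild type and 2.5% and 7.18% in the knockout. Without the block Btg1 passed in the knockout with Ox-LDL (-0.59, adjusted p = 0.0469) and not in the other 3, and the differences between genotypes did not pass.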

How the data were processed

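Total RNA from 18 BMDM cultures was sequenced with a stranded single-end protocol. Per the labels and the methods of the study, the authors aligned reads to mm10 with STAR, quantified genes of Ensembl release 93 with Salmon, and deposited estimated counts per gene, of which 5.85% to 8.10% per library were not whole. These were rounded. Salmon divides reads shared by near-identical copies between them, so counts of single histone genes carry an error that library depth does not show. Libraries held 1043492 to 1768816 counts, and 3 counts correspond to 1.67 to 2.85 CPM. No column belonged to another series (0).

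Genes were kept by filterByExpr (minimum count 2, total 10), scaled by TMM and tested with edgeR 4.0.16 (quasi-likelihood, R 4.3.3, 12290 genes, 6 groups, Benjamini-Hochberg, adjusted p under 0.05). Mice were not separated in this fit (the study's methods name DESeq2 and give no design), and p-values measure the spread between these samples of 3 mice per genotype. In a second fit the mouse was a block, because the labels give the mouse of each library. Deviations of libraries of a mouse from their group means correlated at 0.0551 to 0.293 (median 0.158, 14 of 18 pairs over 0.1). The range was 0.250 to 0.293 in wild-type mice 1 and 2 and 0.0551 to 0.106 in knockout mice 2 and 3. The lowest value was that of control and Ox-LDL in knockout mouse 2. Both genotypes shared the estimate of spread in this fit. DESeq2 1.42.0, other scalings and filters, summed copies and leaving out each library were alternatives. Copies were summed where pairs shared at least 50% of the 31-base words of the gene with fewer words, joined in chains. Scripts were tested on simulated data. Replicates differed beyond sampling noise (chi-square per degree of freedom 2.03 to 12.7).

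The histone genes and the gene lists were chosen with earlier results of these data known. Named were histone genes that passed in either fit, the 3 of highest CPM in each class, the gene of smallest p in each comparison and Hist1h2ah. The H4 gene Hist1h4m, at a mean of 71.3 CPM, was among those 3 of its class and was not described. Of other lists, genes that passed were named where a result turned on them. Shared words and stem-loops were read from GENCODE transcripts and promoters from RefSeq, all on GRCm38.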

Additional observations from a re-analysis of the deposited data

Results flagged for a closer look

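The response of Hist1h2ah to Ac-LDL differed between the genotypes when the mouse was a block (interaction term, fitted log2 difference -8.26, SE 1.49, adjusted p = 0.0291), but not without the block (adjusted p of 1). The fitted value rests on 6 knockout libraries at 0 and is no bound of a fold. With the 11 H2A copies of its group summed, the interaction did not pass with or without the block.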

How the results depend on the processing

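With the mouse as a replicate block, the count of histone genes called went from 1 to 12 in the knockout with Ox-LDL, from 0 to 2 in the wild type with Ox-LDL, from 0 to 1 in each genotype with Ac-LDL and from 0 to 1 for the genotype difference with Ac-LDL. The genotype comparisons cannot take this block, since each mouse has 1 genotype. In the knockout with Ox-LDL and without the block, the count was 0 with DESeq2, library size scaling or copies summed. With the block, 7 of the 22 summed units passed. Without it, the count was 8 with only the libraries compared (6.62% of all genes) and 15 with no filter (2.21%). In each of the last 2 the one gene called higher was Hist1h2bq, while its copy Hist1h2br was called lower with no filter. With no filter it was 2 in the wild type with Ox-LDL (1.52% of all genes), 1 with Ac-LDL in each genotype (0.794% in the wild type and 0.848% in the knockout), 2, 2 and 3 between genotypes in control, Ac-LDL and Ox-LDL (0.126%, 0.203% and 0.153%), and 1 and 3 for the genotype difference with Ac-LDL and Ox-LDL (0.0812% and 0.0676%). These were all lower except Hist1h2ah in the wild type with Ac-LDL and Hist1h2bq for the genotype difference with Ox-LDL. With only the libraries compared it was 1 between genotypes with Ac-LDL (0.0355%). The cause was not tested.

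Leaving out each library in turn gave 0 to 1 histone genes in the wild type with Ox-LDL (1 without control mouse 3 or Ox-LDL mouse 1) and 0 to 1 in the knockout with Ox-LDL. The median log2 fold change of the histone genes then ranged from -0.59 to -0.25 in the knockout with Ox-LDL, the lowest without Ox-LDL mouse 3, from -0.54 to 0.16 in the wild type with Ox-LDL, from -0.26 to 0.42 for Ac-LDL in the wild type, from -0.10 to 0.23 for it in the knockout, and from -0.46 to 0.19, -0.32 to -0.01 and -0.51 to -0.08 between genotypes. Set against G2/M genes in place of S phase genes, a choice made after the data were seen, the log2 histone ratio with Ox-LDL was -0.26 in the wild type and -0.30 in the knockout. With 3 mice per genotype and a median of 1466145 counts, histone genes of a few CPM rest on a handful of reads.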
